A study of Mus musculus with 12 samples.

Results

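Genes of branched-chain amino acid and ketone body catabolism were followed in the left ventricle of mice in a study of diastolic dysfunction and histone deacetylase (HDAC) inhibition. The 29 genes were taken by symbol from a fixed list of branched-chain amino acid, propionate and ketone body genes, and all 29 were found among the 78334 genes of the count table. The list was made from gene function, with no threshold on these measurements, though with earlier results of these data known. Leucine, isoleucine and valine are broken down in mitochondria: a transaminase first makes branched-chain ketoacids, a dehydrogenase complex then commits them to oxidation, and separate chains of enzymes carry the products into the tricarboxylic acid (TCA) cycle, partly through propionate. A kinase switches the dehydrogenase off by phosphorylation and a phosphatase switches it on. Ketone bodies are taken up and oxidised by heart muscle, and this route shares an enzyme and its end product, acetyl-CoA, with leucine and isoleucine breakdown.

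Bulk RNA-seq was done on left ventricle of 12 mice in 3 groups of 4, with 1 library per animal. The first group, UNX/DOCA ITF2357, had UNX/DOCA surgery and was fed normal chow for 4 weeks and then chow containing ITF2357 for 4 weeks. UNX/DOCA is used for removal of a kidney combined with the mineralocorticoid deoxycorticosterone acetate, and ITF2357 (givinostat) is an HDAC inhibitor. The titles and the treatment protocol name ITF2357 for all 4 of these libraries, but their treatment field reads ITF2357, ITF2358, ITF2359 and ITF2360 in replicates 1 to 4, and they are taken here as 1 treatment. The second, UNX/DOCA vehicle, had the same surgery and normal chow throughout. The third, Sham vehicle, had sham surgery and normal chow. Drug was given only to UNX/DOCA mice, so its action without the surgery is not measured. Strain, sex and age were not known from the labels. The study asked whether the drug reverses a dysfunction already present. In bulk tissue, fewer cells of a type and less RNA per cell cannot be told apart.

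Library totals ran from 23.4 to 34.9 M counts, so 1 CPM (1 count in each M of a library's counts) is about 28.3 counts. The 29 genes together held 0.475 to 0.544% of each library. The heart muscle label was checked on 10 cardiomyocyte marker genes, all tested, which summed to at least 50815 CPM in every library. UNX/DOCA vehicle replicates 3 and 4 stood apart from the rest: 6 neutrophil marker genes summed to 511 and 158 CPM there, against 3.81 to 44.9 CPM in the other 10 libraries, and 10 macrophage and monocyte genes summed to 651 and 446 CPM, against 205 to 359 CPM. All 16 of these genes were tested and none was called in any comparison. Replicate 3 also had the lowest total (23.4 M), share of mitochondrially encoded genes (23.7%) and share of the 29 genes (0.475%). The longest cardiomyocyte markers, Ttn and Ryr2, were lowest there, at 3021 and 1122 CPM. Other libraries had at least 4976 and 1451 CPM. Myh6, at 25230 CPM, was the highest of its group there. The part of library quality in these values was not tested. Values without UNX/DOCA vehicle replicates 3 and 4 are given for Bcat1, Bcat2, Dbt, Ppm1k, Abat, Oxct1, Slc3a2, Slc7a5, Slc16a7, Asns and 2 ratios.

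Levels of the 29 genes spanned a wide range. The length used merges all annotated exons of a gene, and the lengths of the transcripts present were not measured. Per length of exon, as CPM per kb averaged over the 12 libraries, Oxct1 stood highest at 411, followed by Acat1 at 145 and Dld at 140.1. Next came Hsd17b10 at 70.4, Slc16a1 at 65.6 and Ivd at 53.6. At the low end were Mccc1 at 2.95, Abat at 1.95, Slc7a5 at 1.71 and Bcat1 at 0.194. Genes of ketone oxidation and enzymes shared with other mitochondrial pathways thus held the top places, and the cytosolic transaminase the last. All 29 passed the filter on low counts. Bcat1, the scarcest, had 20 to 95 counts per library.

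Of the 29 genes, 0 were called between UNX/DOCA ITF2357 and UNX/DOCA vehicle, 0 between UNX/DOCA vehicle and Sham vehicle, and 2 between UNX/DOCA ITF2357 and Sham vehicle, where Bcat2 and Abat were higher. A call is an adjusted p under 0.05 in edgeR's quasi-likelihood test with Benjamini-Hochberg adjustment over all 16981 genes tested. The same rule called 0.901% of all genes in the first comparison (0.459% higher and 0.442% lower), 0% in the second and 1.75% in the third (0.913% higher and 0.842% lower). At an unadjusted p under 0.05, 11 of the 29 were higher and 1 lower in the first comparison, where 8.70% and 9.80% of all genes were (18.5% in either direction). In the second, 3 were higher and 8 lower, where 9.42% and 6.47% of all genes were (15.9%). In the third, 7 were higher and 1 lower, where 10.7% and 9.39% of all genes were (20.1%). DESeq2 called 6, 2 and 3 of the 29, where it called 5.46%, 3.49% and 6.95% of all genes. Limma-voom with sample weights called 1, 2 and 2, where it called 1.48%, 3.07% and 8.87%.

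The signs of the fold changes were counted as well. In the comparison of UNX/DOCA ITF2357 with UNX/DOCA vehicle, 24 of 29 log2 fold changes were above 0 and 5 below, with a median of 0.128, while 49.8% of all genes were above 0 and 50.2% below, with a median of -0.001. For UNX/DOCA vehicle against Sham vehicle, 8 were above 0 and 21 below, with a median of -0.119, while 51.1% of all genes were above 0 and 48.9% below, with a median of 0.007. For UNX/DOCA ITF2357 against Sham vehicle, 16 were above 0 and 13 below, with a median of 0.018, while 52.3% of all genes were above 0 and 47.7% below, with a median of 0.015. Each pair of comparisons shares a group of 4 libraries, so these values stand side by side and are not separate evidence. The list was also chosen with earlier results known, so setting its shares beside those of all genes is not an unbiased comparison. The median log2 fold change of the 29 genes was 0.103, -0.051 and 0.011 without UNX/DOCA vehicle replicates 3 and 4, an omission chosen after seeing the data. Cardiomyocyte marker sums were also lowest on average in UNX/DOCA vehicle, at 56932 ± 2062 CPM in UNX/DOCA ITF2357, 53932 ± 2172 CPM in UNX/DOCA vehicle and 59538 ± 4925 CPM in Sham vehicle (SD, n = 4), with overlapping ranges, and their part in the result was not tested.

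**Figure D1:**
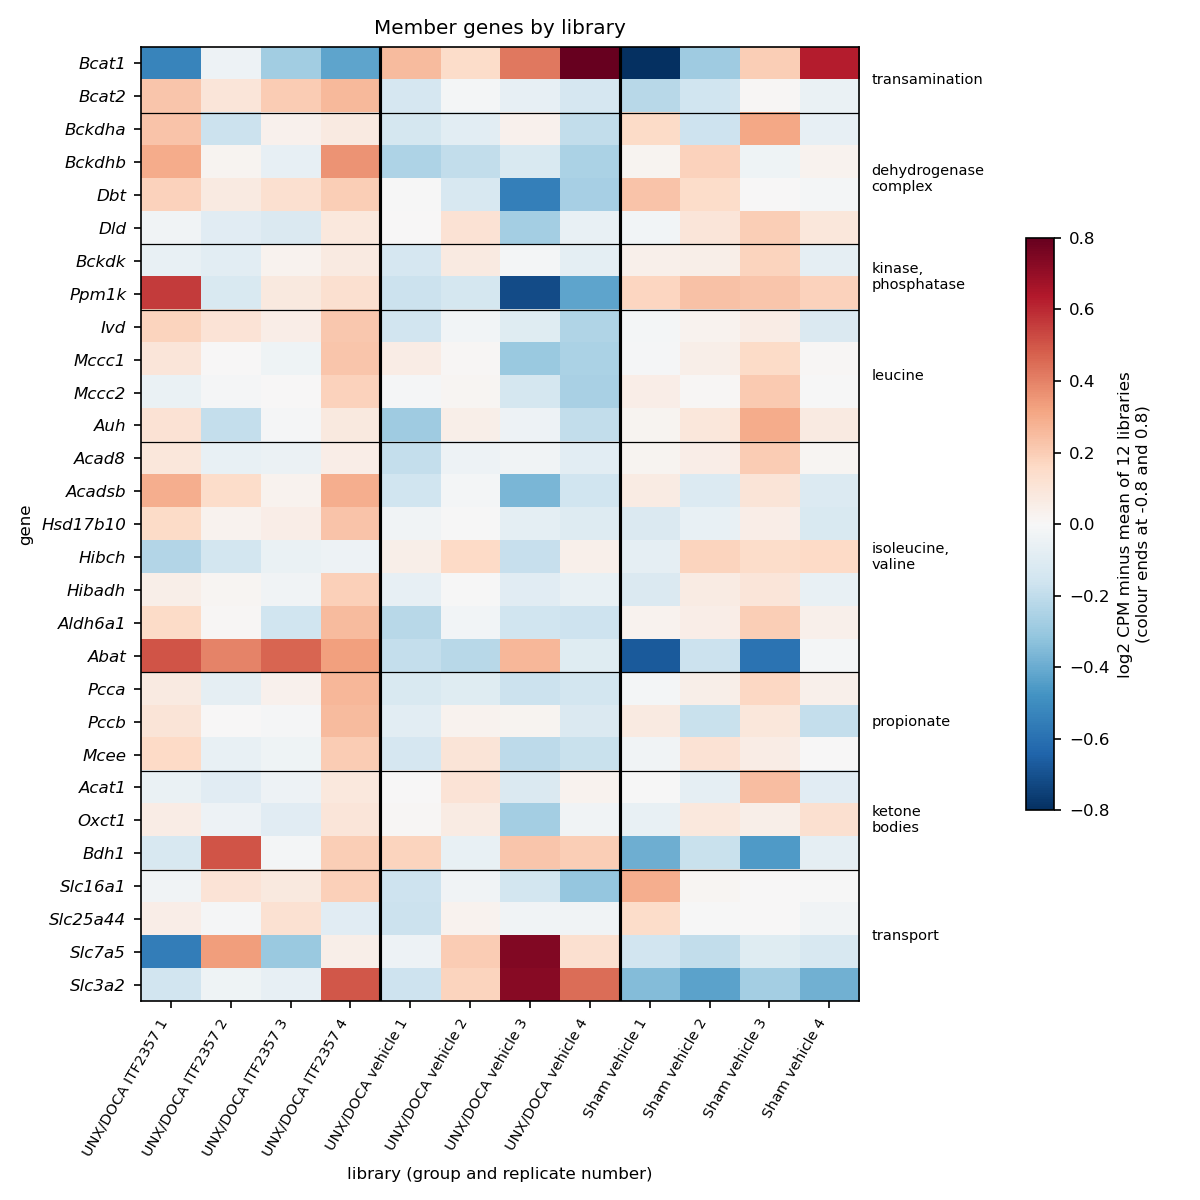
Level of each of the 29 genes (rows, grouped by role) in each of the 12 libraries (columns), as log2 CPM minus the gene's mean over the 12 libraries; colours end at -0.8 and 0.8. Bcat2 and Abat lie above their means in all 4 UNX/DOCA ITF2357 libraries, and Ppm1k lies below its mean in all 4 UNX/DOCA vehicle libraries.

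The first step is the transfer of the amino group, by Bcat2 in mitochondria and by Bcat1 in the cytosol. Bcat2 had 194, 178, 192 and 200.1 CPM in UNX/DOCA ITF2357, against 152, 165, 159 and 152 CPM in UNX/DOCA vehicle and 143, 149, 168 and 161 CPM in Sham vehicle. Every UNX/DOCA ITF2357 library was above every library of the other 2 groups, which overlapped each other. Bcat2 was 1.23-fold higher in UNX/DOCA ITF2357 than in Sham vehicle (log2 0.30 ± 0.07 SE; edgeR adjusted p = 0.0437). Against UNX/DOCA vehicle it was 1.22-fold higher but was not called (log2 0.28 ± 0.07 SE; edgeR adjusted p = 0.0633), and DESeq2 and limma-voom called it (adjusted p = 0.00438 and 0.0489). Between UNX/DOCA vehicle and Sham vehicle the difference was 0.01 on the log2 scale (edgeR adjusted p = 0.936). The call against Sham vehicle held without UNX/DOCA vehicle replicate 3 and without Sham vehicle replicate 3, and was lost without any other single library, at log2 values of 0.25 to 0.33 and adjusted p of 0.0352 to 0.147 over all 12 omissions. It held without UNX/DOCA vehicle replicates 3 and 4 together (log2 0.29; adjusted p = 0.0475). An opposite-strand gene overlaps exons of Bcat2 and held 660 counts over the 12 libraries, against 56824 for Bcat2.

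Bcat1 had 1.15, 1.64, 1.38 and 1.24 CPM in UNX/DOCA ITF2357, against 2.02, 1.88, 2.29 and 3.42 CPM in UNX/DOCA vehicle and 0.760, 1.37, 1.94 and 2.64 CPM in Sham vehicle. The UNX/DOCA ITF2357 libraries lay below all UNX/DOCA vehicle libraries, and Sham vehicle overlapped both groups. EdgeR did not call it in any of the 3 comparisons (adjusted p = 0.196, 0.446 and 0.650). Its log2 difference between UNX/DOCA ITF2357 and UNX/DOCA vehicle was -0.82, and -0.53 without UNX/DOCA vehicle replicates 3 and 4; between UNX/DOCA vehicle and Sham vehicle it was 0.52, and 0.22 without them. The ratio of Bcat1 to Bcat2 within a library was 0.00712 ± 0.00149 in UNX/DOCA ITF2357, against 0.0154 ± 0.00490 in UNX/DOCA vehicle, and it was 0.0106 ± 0.00466 in Sham vehicle (SD, n = 4). The log2 ratio differed by -1.08 between UNX/DOCA ITF2357 and UNX/DOCA vehicle (2-sided exact permutation p = 0.0286, adjusted over 6 ratio tests 0.0572), and 0.0286 is the smallest p that 4 against 4 allows. The adjusted value follows from that limit and from how many of the 6 tests reach it. The other 2 differences had exact permutation p of 0.200 and 0.286 (adjusted 0.300 and 0.343). Without UNX/DOCA vehicle replicates 3 and 4 the first difference was -0.81 and that between UNX/DOCA vehicle and Sham vehicle 0.33, where it was 0.60 with them.

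The promoters of Bcat2, called against Sham vehicle, and of Ppm1k, a phosphatase gene, are given in full. Ppm1k had the largest positive difference of the 29 between UNX/DOCA ITF2357 and UNX/DOCA vehicle. Abat, the other gene called, had no promoter in the set used. The sequences are 300 bases each, from RefSeq on GRCm38.p6, from 250 bases before to 50 bases after the start of transcription. RefSeq lists a pair of starts for Bcat2, at chr7:45569903-45570202 and chr7:45571029-45571328 (both plus strand), and 1 for Ppm1k, at chr6:57535438-57535737 (minus strand). Capitals mark CACCC, the core bound by Krueppel-like factors, read on either strand, so GGGTG is the same motif.
Bcat2 first start: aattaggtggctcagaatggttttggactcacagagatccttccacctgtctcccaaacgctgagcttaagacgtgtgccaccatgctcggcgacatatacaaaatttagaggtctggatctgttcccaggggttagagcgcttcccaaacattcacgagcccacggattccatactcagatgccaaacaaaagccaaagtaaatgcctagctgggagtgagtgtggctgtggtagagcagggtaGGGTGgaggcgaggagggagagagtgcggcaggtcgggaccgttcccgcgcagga
Bcat2 second start: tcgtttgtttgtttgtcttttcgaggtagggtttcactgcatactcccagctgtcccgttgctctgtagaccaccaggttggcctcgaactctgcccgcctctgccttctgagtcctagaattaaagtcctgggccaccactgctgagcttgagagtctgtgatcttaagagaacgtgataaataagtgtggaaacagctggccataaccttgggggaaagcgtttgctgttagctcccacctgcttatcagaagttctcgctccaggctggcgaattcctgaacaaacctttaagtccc
Ppm1k: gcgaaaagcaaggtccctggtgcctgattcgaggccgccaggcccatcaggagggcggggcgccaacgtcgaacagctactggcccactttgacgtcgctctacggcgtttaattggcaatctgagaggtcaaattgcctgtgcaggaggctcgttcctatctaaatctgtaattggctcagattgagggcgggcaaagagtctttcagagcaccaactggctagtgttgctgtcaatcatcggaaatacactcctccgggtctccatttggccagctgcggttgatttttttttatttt
The first Bcat2 promoter holds the motif and the other 2 sequences do not. Counting only the first listed start of each gene, 17 of the 24 genes with a promoter in the table (70.8%) hold CACCC, as do 56.7% of all 27025 mouse genes in it. The E-box CACGTG was found for Mccc2 and Slc16a1, 2 of 24 (8.33%), beside 7.24% of all genes. The motif AAGGTCA of oestrogen-related receptors (4.66% of all genes) and the ATF4 element TGATGNAA (4.06%) were found in none of the 24.

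The ketoacid dehydrogenase has a decarboxylase made of Bckdha and Bckdhb, the transacylase Dbt, and Dld, a subunit shared with the pyruvate and 2-oxoglutarate dehydrogenases. None of the 4 genes was called by edgeR in any comparison, while DESeq2 called Bckdhb and Dbt in the first (adjusted p = 0.0163 and 0.0319). Bckdhb had 61.7, 50.9, 48.0 and 64.4 CPM in UNX/DOCA ITF2357, against 42.3, 43.9, 46.2 and 42.0 CPM in UNX/DOCA vehicle and 51.0, 57.0, 49.0 and 51.1 CPM in Sham vehicle. The UNX/DOCA vehicle libraries were the lowest 4 of the 12, and the other groups overlapped. The log2 difference was 0.37 ± 0.10 between UNX/DOCA ITF2357 and UNX/DOCA vehicle and -0.26 ± 0.10 between UNX/DOCA vehicle and Sham vehicle (SE; edgeR adjusted p = 0.0798 and 0.228).

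Dbt had 74.6, 68.8, 71.7 and 74.9 CPM in UNX/DOCA ITF2357, against 65.2, 59.9, 44.8 and 54.5 CPM in UNX/DOCA vehicle and 76.8, 72.4, 65.7 and 64.9 CPM in Sham vehicle. All UNX/DOCA ITF2357 libraries were above all UNX/DOCA vehicle libraries, while Sham vehicle replicate 4 lay just under UNX/DOCA vehicle replicate 1. The log2 difference was 0.37 ± 0.10 in the first comparison and -0.32 ± 0.10 in the second (SE; edgeR adjusted p = 0.0962 and 0.182). Without UNX/DOCA vehicle replicates 3 and 4 the values were 0.21 and -0.16 (adjusted p = 0.395 and 0.766). Bckdha averaged 42.3 ± 4.76 CPM in UNX/DOCA ITF2357, 38.4 ± 2.65 CPM in UNX/DOCA vehicle and 43.0 ± 6.47 CPM in Sham vehicle, and the groups overlapped. An opposite-strand gene that overlaps exons of Bckdha held 1086 counts over the 12 libraries, against 13882 for Bckdha. Dld averaged 502 ± 31.9 CPM in UNX/DOCA ITF2357, 498 ± 54.0 CPM in UNX/DOCA vehicle and 548 ± 34.3 CPM in Sham vehicle (SD, n = 4 each).

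The complex is switched by Bckdk, its kinase, and Ppm1k, its mitochondrial phosphatase. Ppm1k had 141, 88.0, 101 and 104 CPM in UNX/DOCA ITF2357, against 84.8, 86.9, 58.3 and 71.4 CPM in UNX/DOCA vehicle and 108, 113, 111 and 109 CPM in Sham vehicle. Each UNX/DOCA vehicle library was below every library of the other groups, and the lowest 2 were replicates 3 and 4. The difference was log2 0.52 ± 0.14 between UNX/DOCA ITF2357 and UNX/DOCA vehicle and -0.55 ± 0.14 between UNX/DOCA vehicle and Sham vehicle (SE; edgeR adjusted p = 0.0914 and 0.126). DESeq2 called Ppm1k in both (adjusted p = 0.0250 and 0.0202), and limma-voom called it in the second (adjusted p = 0.0341). Against Sham vehicle, UNX/DOCA ITF2357 differed by -0.02 ± 0.14 (edgeR adjusted p = 0.952). Without UNX/DOCA vehicle replicates 3 and 4 the first 2 values were 0.33 and -0.36 (edgeR adjusted p = 0.419 and 0.689). These 2 libraries were also those with high macrophage and neutrophil marker levels. UNX/DOCA vehicle replicates 1 and 2, with macrophage and monocyte sums of 240 and 295 CPM, also had less Ppm1k than every library of the other groups. The part of those cells in the Ppm1k values was not tested.

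Bckdk averaged 86.1 ± 4.41 CPM in UNX/DOCA ITF2357, 84.5 ± 5.27 CPM in UNX/DOCA vehicle and 89.8 ± 6.48 CPM in Sham vehicle (SD, n = 4 each), and its groups overlapped in every comparison. The ratio of Bckdk to Ppm1k within a library was 0.590, 0.930, 0.877 and 0.873 in UNX/DOCA ITF2357, against 0.931, 1.05, 1.47 and 1.15 in UNX/DOCA vehicle and 0.827, 0.795, 0.880 and 0.757 in Sham vehicle. The UNX/DOCA vehicle libraries had the 4 highest ratios, by a narrow margin over UNX/DOCA ITF2357 replicate 2. The log2 ratio differed by -0.49 between UNX/DOCA ITF2357 and UNX/DOCA vehicle and by 0.48 between UNX/DOCA vehicle and Sham vehicle (2-sided exact permutation p = 0.0286 for each, adjusted 0.0572). Both p are again the smallest that 4 against 4 allows, which sets the adjusted value. UNX/DOCA ITF2357 and Sham vehicle differed by -0.02 (exact permutation p = 0.943). UNX/DOCA vehicle replicates 3 and 4 had the 2 highest ratios, and without them the first 2 differences were -0.30 and 0.28 (exact permutation p = 0.133 for each, the smallest that 4 against 2 allows).

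**Figure D2:**
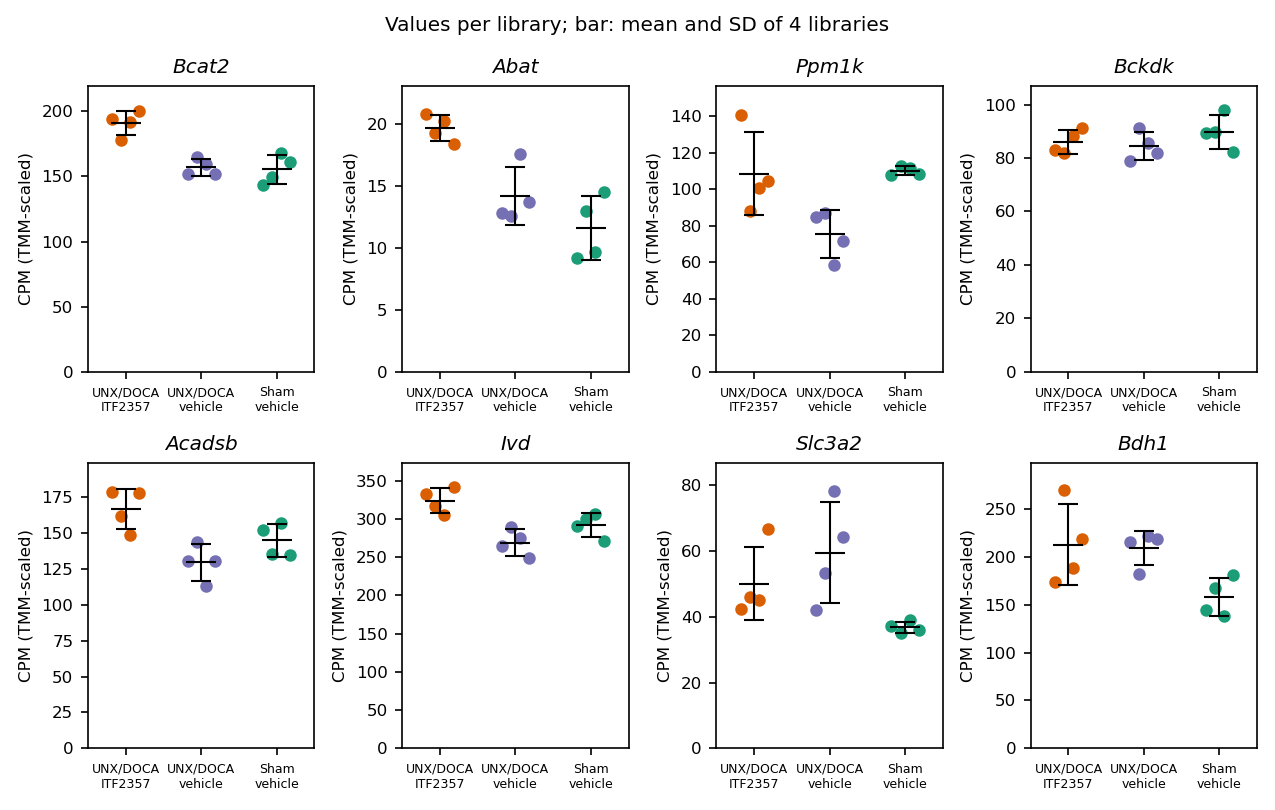
CPM (y axes, from 0) of 8 genes in each library (points) of UNX/DOCA ITF2357, UNX/DOCA vehicle and Sham vehicle; lines give the mean and SD of 4 libraries. Bcat2 and Abat stand highest in UNX/DOCA ITF2357, Ppm1k stands lowest in UNX/DOCA vehicle, and Bckdk overlaps in all 3 groups.

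In the leucine branch, Ivd oxidises isovaleryl-CoA, Mccc1 and Mccc2 form the carboxylase of the next step, and Auh hydrates its product. Ivd had 333, 317, 305 and 342 CPM in UNX/DOCA ITF2357, against 264, 289, 275 and 248 CPM in UNX/DOCA vehicle and 291, 300.1, 307 and 271 CPM in Sham vehicle. UNX/DOCA ITF2357 lay wholly above UNX/DOCA vehicle and overlapped Sham vehicle by a single library. Its log2 difference was 0.27 ± 0.07 SE in the first comparison (edgeR adjusted p = 0.0718; DESeq2 0.00645). Mccc1, Mccc2 and Auh had log2 differences of 0.18, 0.13 and 0.11 between UNX/DOCA ITF2357 and UNX/DOCA vehicle and of -0.16, -0.16 and -0.24 between UNX/DOCA vehicle and Sham vehicle, with overlapping groups throughout. None of the 4 was called in any comparison by edgeR.

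In the isoleucine and valine branch, Abat was the gene called. It encodes the mitochondrial transaminase that degrades the neurotransmitter GABA and also handles an aminoisobutyrate made from valine. Abat had 20.7, 19.3, 20.2 and 18.4 CPM in UNX/DOCA ITF2357, against 12.8, 12.5, 17.6 and 13.7 CPM in UNX/DOCA vehicle and 9.16, 13.0, 9.69 and 14.5 CPM in Sham vehicle. All 4 UNX/DOCA ITF2357 libraries were above the other 8, and the other groups overlapped. It was 1.70-fold higher in UNX/DOCA ITF2357 than in Sham vehicle (log2 0.76 ± 0.15 SE; edgeR adjusted p = 0.0332), 1.39-fold higher than in UNX/DOCA vehicle without a call (log2 0.47 ± 0.15 SE; adjusted p = 0.127), and 1.22-fold higher in UNX/DOCA vehicle than in Sham vehicle without a call (adjusted p = 0.374). The call held without UNX/DOCA ITF2357 replicate 1 and without UNX/DOCA vehicle replicates 1, 2 or 3. It was lost without UNX/DOCA ITF2357 replicates 2, 3 or 4, UNX/DOCA vehicle replicate 4 or any 1 Sham vehicle library, at log2 values of 0.66 to 0.88 and adjusted p of 0.0179 to 0.101 over all 12 omissions. It held without UNX/DOCA vehicle replicates 3 and 4 together (log2 0.75; adjusted p = 0.0240).

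Acadsb, the dehydrogenase of short branched acyl-CoAs from isoleucine, had 178, 162, 149 and 178 CPM in UNX/DOCA ITF2357, against 131, 144, 113 and 131 CPM in UNX/DOCA vehicle and 152, 135, 157 and 135 CPM in Sham vehicle. UNX/DOCA ITF2357 was wholly above UNX/DOCA vehicle, and Sham vehicle overlapped both. The log2 difference was 0.36 ± 0.09 SE in the first comparison (edgeR adjusted p = 0.0711; DESeq2 0.0120). Acad8, the matching dehydrogenase of the valine branch, had log2 differences of 0.10 between UNX/DOCA ITF2357 and UNX/DOCA vehicle and -0.16 between UNX/DOCA vehicle and Sham vehicle. Hsd17b10, a dehydrogenase of isoleucine breakdown, averaged 98.9 ± 6.41 CPM in UNX/DOCA ITF2357, 87.8 ± 2.67 CPM in UNX/DOCA vehicle and 87.4 ± 4.92 CPM in Sham vehicle (SD, n = 4 each). It lay above UNX/DOCA vehicle in every UNX/DOCA ITF2357 library and was not called (edgeR adjusted p = 0.190 and 0.158 against UNX/DOCA vehicle and Sham vehicle).

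The later valine enzymes gave no call. Aldh6a1, which turns methylmalonate semialdehyde into propionyl-CoA, averaged 201 ± 24.6 CPM in UNX/DOCA ITF2357, 174 ± 10.4 CPM in UNX/DOCA vehicle and 202 ± 11.2 CPM in Sham vehicle, with UNX/DOCA vehicle wholly below Sham vehicle (edgeR adjusted p = 0.241). Hibch, which frees hydroxyisobutyrate from CoA, averaged 93.9 ± 5.86 CPM in UNX/DOCA ITF2357, 103 ± 10.00 CPM in UNX/DOCA vehicle and 109 ± 8.62 CPM in Sham vehicle (SD, n = 4 each). Between UNX/DOCA ITF2357 and Sham vehicle its log2 difference was -0.22 (edgeR adjusted p = 0.171). Hibch was the only gene of this branch with a log2 difference below 0 between UNX/DOCA ITF2357 and UNX/DOCA vehicle, at -0.14 (edgeR adjusted p = 0.400). Hibadh, which oxidises the freed hydroxyisobutyrate, had a log2 difference of 0.11 there.

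Propionyl-CoA is carboxylated by Pcca and Pccb, and Mcee, an epimerase, passes the product on. Pcca averaged 80.7 ± 8.12 CPM in UNX/DOCA ITF2357, 69.5 ± 1.54 CPM in UNX/DOCA vehicle and 79.7 ± 4.26 CPM in Sham vehicle (SD, n = 4 each). UNX/DOCA vehicle lay wholly below both other groups without a call (edgeR adjusted p = 0.155 and 0.233). An opposite-strand gene that overlaps exons of Pcca held 2195 counts over the 12 libraries, against 25923 for Pcca. Pccb and Mcee had log2 differences of 0.13 and 0.17 between UNX/DOCA ITF2357 and UNX/DOCA vehicle, with overlapping groups.

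Of the ketone body genes, Bdh1 oxidises 3-hydroxybutyrate, Oxct1 attaches CoA to acetoacetate in the step that limits ketone use, and Acat1 cleaves the acetoacetyl-CoA. Oxct1 had 1579, 1473, 1425 and 1625 CPM in UNX/DOCA ITF2357, against 1529, 1584, 1254 and 1488 CPM in UNX/DOCA vehicle and 1455, 1610.0, 1563 and 1661 CPM in Sham vehicle. The 3 groups overlapped throughout, and the lowest value was that of UNX/DOCA vehicle replicate 3. Its log2 differences were 0.06 ± 0.08, -0.10 ± 0.08 and -0.04 ± 0.08 (SE; edgeR adjusted p = 0.722, 0.547 and 0.793). The first 2 were -0.036 and -0.015 without UNX/DOCA vehicle replicates 3 and 4. Acat1 differed by at most 0.05 on the log2 scale in any comparison.

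Bdh1 had 174, 270.1, 189 and 218 CPM in UNX/DOCA ITF2357, against 216, 183, 222 and 219 CPM in UNX/DOCA vehicle and 145.0, 168, 139 and 181 CPM in Sham vehicle. UNX/DOCA vehicle lay wholly above Sham vehicle, while UNX/DOCA ITF2357 overlapped both. The log2 difference was 0.41 ± 0.13 between UNX/DOCA vehicle and Sham vehicle and 0.43 ± 0.13 between UNX/DOCA ITF2357 and Sham vehicle (SE; edgeR adjusted p = 0.182 and 0.0996), and DESeq2 called the second (adjusted p = 0.0456). The 2 UNX/DOCA groups differed by 0.02 ± 0.13 on that scale (edgeR adjusted p = 0.948).

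Transport genes had values on both sides of 0. Slc3a2, the heavy chain that carries several amino acid exchangers to the cell surface, had 42.4, 46.1, 45.2 and 66.6 CPM in UNX/DOCA ITF2357, against 42.1, 53.3, 78.3 and 64.4 CPM in UNX/DOCA vehicle and 37.1, 35.03, 39.0 and 36.1 CPM in Sham vehicle. Both UNX/DOCA groups lay wholly above Sham vehicle and overlapped each other. UNX/DOCA ITF2357 differed from Sham vehicle by 0.44 on the log2 scale without a call (edgeR adjusted p = 0.193). Between UNX/DOCA vehicle and Sham vehicle Slc3a2 was 1.62-fold higher without a call in edgeR (log2 0.69 ± 0.18 SE; adjusted p = 0.123), and DESeq2 and limma-voom called it (adjusted p = 0.0137 and 0.0312). EdgeR also called it when UNX/DOCA vehicle replicate 1 was left out (log2 0.82; adjusted p = 0.0297). The UNX/DOCA vehicle libraries high in Slc3a2, replicates 3 and 4, are those high in macrophage and neutrophil markers. Without them the log2 difference was 0.37 (edgeR adjusted p = 0.728), and the part of those cells in the result was not tested.

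Slc7a5, the light chain that exchanges leucine with Slc3a2, averaged 5.84 ± 1.59 CPM in UNX/DOCA ITF2357, 7.56 ± 1.92 CPM in UNX/DOCA vehicle and 5.58 ± 0.174 CPM in Sham vehicle (SD, n = 4 each), without a call (edgeR adjusted p = 0.343, 0.314 and 0.888). Its highest value, 10.4 CPM, was again that of UNX/DOCA vehicle replicate 3. Without UNX/DOCA vehicle replicates 3 and 4 its log2 difference was -0.17 in the first comparison and 0.23 in the second, against -0.37 and 0.43 with them. Slc16a1, the monocarboxylate transporter that carries lactate and ketone bodies, had 283, 311, 305 and 329 CPM in UNX/DOCA ITF2357, against 258, 283, 260.3 and 233 CPM in UNX/DOCA vehicle and 352, 292, 289 and 288 CPM in Sham vehicle. UNX/DOCA vehicle was the lowest group, with its highest library almost level with the lowest of UNX/DOCA ITF2357 and a little under the lowest of Sham vehicle. Its log2 differences were 0.25 ± 0.08 and -0.24 ± 0.08 in the first 2 comparisons (SE; edgeR adjusted p = 0.146 and 0.205). Slc25a44, the mitochondrial carrier of branched-chain amino acids, ranged from 19.4 to 22.5 CPM in UNX/DOCA ITF2357, from 18.4 to 21.1 CPM in UNX/DOCA vehicle and from 20.3 to 22.9 CPM in Sham vehicle, so its groups overlapped.

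**Figure D3:**
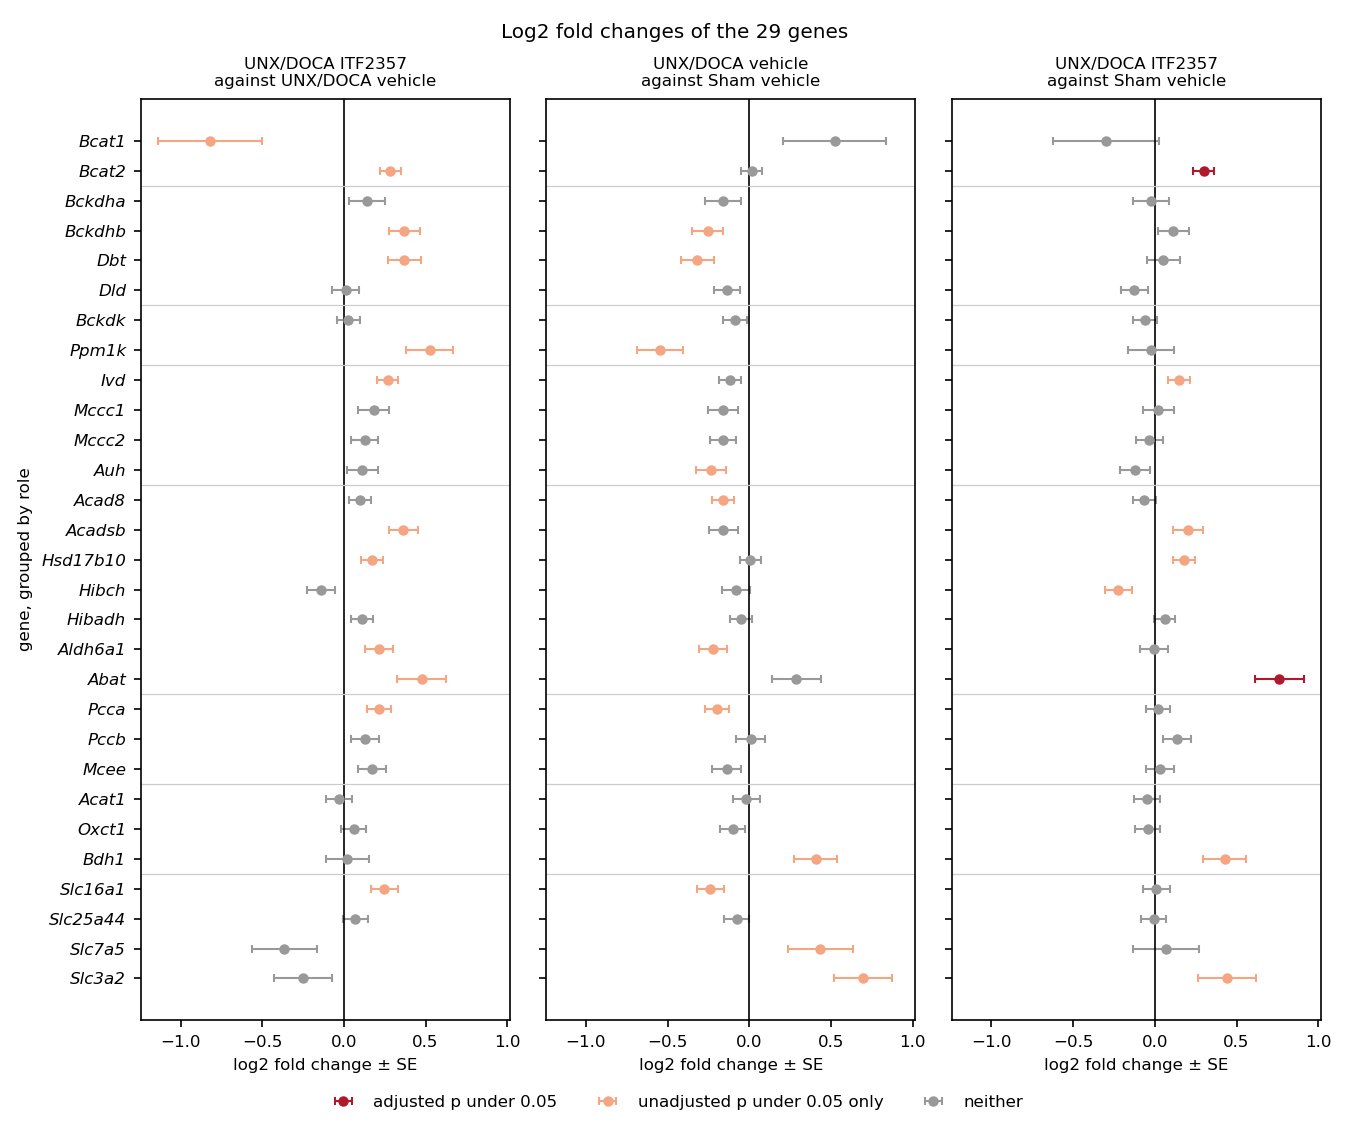
Log2 fold change (x axes) of the 29 genes (y axis, grouped by role) in the 3 comparisons; bars give the SE, and colour gives an adjusted p under 0.05, an unadjusted p under 0.05 only, or neither, in edgeR. Bcat2 and Abat against Sham vehicle are the 2 calls, and 24 of 29 values lie above 0 in the comparison of UNX/DOCA ITF2357 with UNX/DOCA vehicle.

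Groups that did not overlap were counted for all 29. UNX/DOCA ITF2357 lay wholly above UNX/DOCA vehicle for 10 genes and wholly below for 1, while 4.95% and 4.36% of all genes did so. UNX/DOCA vehicle lay wholly above Sham vehicle for 3 and wholly below for 6, while 5.03% and 4.36% of all genes did so. UNX/DOCA ITF2357 lay wholly above Sham vehicle for 3, where 7.27% of all genes did so, and wholly below for 0, where 6.39% did so. The summed level of the 29 genes was 5053 to 5719 CPM in UNX/DOCA ITF2357, 4607 to 5284 CPM in UNX/DOCA vehicle and 5079 to 5490.5 CPM in Sham vehicle, and these ranges overlap.

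Other genes of the same pathways made 1 call in the first comparison and 1 in the third. Of 23 listed, 22 were tested, and their median log2 difference between UNX/DOCA ITF2357 and UNX/DOCA vehicle was -0.001. Slc16a7, a monocarboxylate transporter with high affinity for pyruvate, had 14.5, 10.1, 8.33 and 8.95 CPM in UNX/DOCA ITF2357, against 6.92, 5.49, 5.32 and 5.72 CPM in UNX/DOCA vehicle and 7.22, 8.07, 7.36 and 10.1 CPM in Sham vehicle. It was 1.78-fold higher in UNX/DOCA ITF2357 than in UNX/DOCA vehicle, with no overlap (log2 0.83 ± 0.18 SE; edgeR adjusted p = 0.0496). Of single omissions, this call held without UNX/DOCA vehicle replicate 1 and was lost without each other library, at log2 values of 0.63 to 0.92 and adjusted p of 0.0431 to 0.135. It was also lost under RLE scaling (adjusted p = 0.0522), in limma-voom (0.0591) and without UNX/DOCA vehicle replicates 3 and 4 (0.276). Slc38a2, a sodium-coupled transporter of neutral amino acids, averaged 247 ± 25.1 CPM in UNX/DOCA ITF2357, 296 ± 34.9 CPM in UNX/DOCA vehicle and 379 ± 65.5 CPM in Sham vehicle (SD, n = 4 each), and fell by 0.62 on the log2 scale between UNX/DOCA ITF2357 and Sham vehicle (edgeR adjusted p = 0.0340). That call was lost without UNX/DOCA ITF2357 replicates 1, 3 or 4 or Sham vehicle replicates 1, 2 or 4, with adjusted p of 0.0279 to 0.101 over the 12 omissions.

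Of 11 regulators of these pathways none was called in any comparison. Klf15, a Krueppel-like factor known in heart muscle as an activator of branched-chain amino acid breakdown, had 54.7, 62.4, 95.7 and 116 CPM in UNX/DOCA ITF2357, against 44.5, 60.1, 65.0 and 70.8 CPM in UNX/DOCA vehicle and 39.5, 40.7, 85.1 and 47.8 CPM in Sham vehicle. Values were widely spread within each group and the groups overlapped (edgeR adjusted p = 0.421, 0.799 and 0.246). Mlxipl, a glucose-responsive factor, averaged 25.9 ± 2.85 CPM in UNX/DOCA ITF2357, 36.8 ± 4.45 CPM in UNX/DOCA vehicle and 35.7 ± 4.52 CPM in Sham vehicle (SD, n = 4 each), with adjusted p of 0.0588 and 0.0583 against the other groups in edgeR. Ppard, a nuclear receptor of fatty acid metabolism, had a log2 difference of -0.37 in the first comparison (edgeR adjusted p = 0.117).

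Of 13 tested genes of the ATF4 amino acid response, whose list includes Asns, none was called. Between UNX/DOCA vehicle and Sham vehicle their log2 differences ran from -0.69 to 1.01, with a median of 0.21. There 8 were above 0 and 5 below, where 51.1% and 48.9% of all genes were. UNX/DOCA vehicle lay wholly above Sham vehicle for 3 and wholly below for 1, where 5.03% and 4.36% of all genes did so. UNX/DOCA ITF2357 lay wholly above Sham vehicle for 1 and wholly below for 2, where 7.27% and 6.39% did so. Asns, asparagine synthetase, had 10.5, 11.3, 10.1 and 9.69 CPM in UNX/DOCA ITF2357, against 9.55, 11.1, 13.9 and 15.0 CPM in UNX/DOCA vehicle and 8.29, 8.44, 7.56 and 8.45 CPM in Sham vehicle. Both UNX/DOCA groups lay above Sham vehicle, and the 2 highest values were UNX/DOCA vehicle replicates 3 and 4 (log2 0.59 and edgeR adjusted p = 0.0998 between UNX/DOCA vehicle and Sham vehicle). EdgeR called it without UNX/DOCA vehicle replicate 1 (log2 0.69; adjusted p = 0.0211), as did DESeq2 and limma-voom on all libraries (0.00520 and 0.0312). The difference was 0.33 without UNX/DOCA vehicle replicates 3 and 4 (edgeR adjusted p = 0.679). Of 14 clock genes, which drive daily rhythms, none was called, and several varied widely within groups. Dbp, an output gene of the clock, ranged from 42.3 to 61.2 CPM in UNX/DOCA ITF2357, from 9.85 to 58.1 CPM in UNX/DOCA vehicle and from 8.40 to 50.2 CPM in Sham vehicle. Klf15 is itself known to cycle over the day, the labels used here give no time of tissue collection, and the part of the time of day in these values was not tested.

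The TCA cycle is where the carbon of these pathways ends. Of 16 TCA genes, 13 had a log2 difference below 0 between UNX/DOCA ITF2357 and UNX/DOCA vehicle (median -0.11, none called). There 50.2% of all genes were below 0, and 24 of the 29 catabolic genes were above 0. Between UNX/DOCA ITF2357 and Sham vehicle all 16 were below 0 (median -0.18), where 47.7% of all genes were. Cs, citrate synthase, was called in that comparison. Cs had 961, 1018, 1060.0 and 1011 CPM in UNX/DOCA ITF2357, against 1166, 1195, 1232 and 1154 CPM in UNX/DOCA vehicle and 1248, 1257, 1334 and 1246 CPM in Sham vehicle. It was lowest in every UNX/DOCA ITF2357 library and fell by 0.33 on the log2 scale relative to Sham vehicle (edgeR adjusted p = 0.0153). The call was lost without Sham vehicle replicates 1, 2 or 4, with adjusted p of 0.00917 to 0.0586 over the 12 omissions. Whether the 2 lists differ was not tested.

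**Figure D4:**
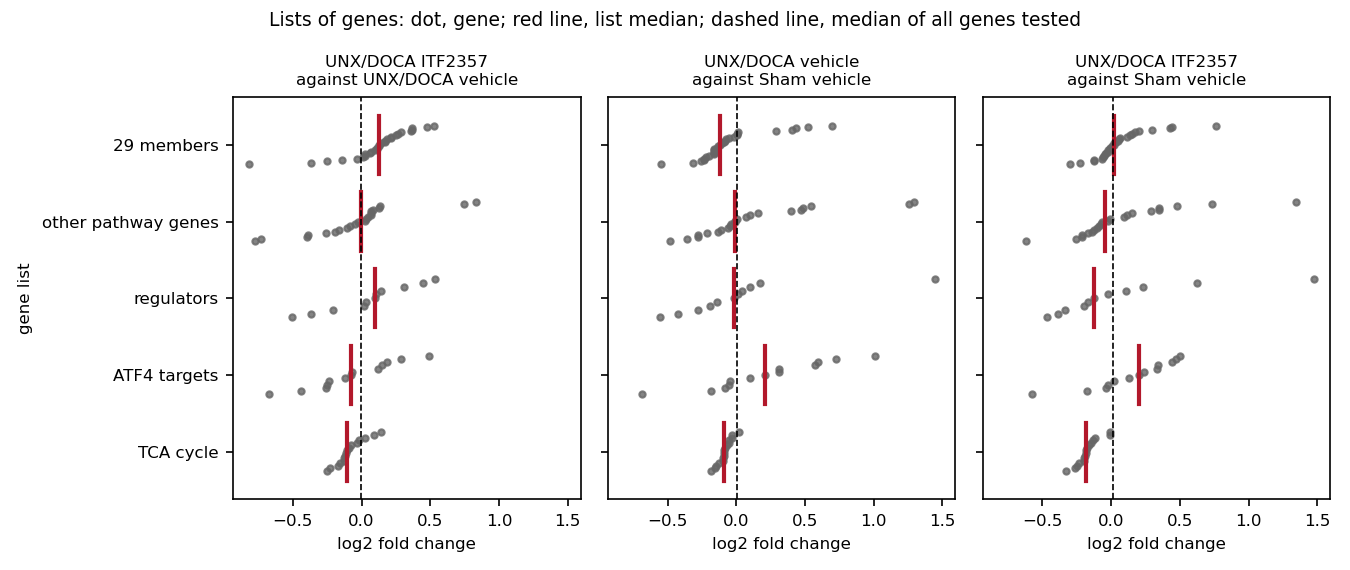
Log2 fold change (x axes) of each gene (dots) of the 29 and of 4 other lists (rows) in the 3 comparisons; the red line is the list's median and the dashed line the median of all 16981 genes tested. The 29 genes have medians of 0.128, -0.119 and 0.018, and the TCA cycle genes have medians of -0.108, -0.090 and -0.181.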

How the data were processed

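RNA from left ventricle (about 10 mg, poly(A), strand-marking kit) was sequenced in 12 libraries, 4 per group, which were grouped by title. The treatment field, which gives each drug library a compound number of its own, was not used. The authors' deposited values are raw counts by Ensembl gene, without normalization. FastQC 0.11.9, STAR 2.7.10b and mm39 are named in the submitters' processing notes. Which tool, strand setting and annotation gave the counts is not given in the sources used here. A gene's reads therefore cannot be told apart from those of an overlapping opposite-strand gene. Symbols and the lengths of merged exons came from GENCODE for GRCm38, and genes with symbols made up 99.2% of counts or more.

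The test was edgeR 4.0.16 (R 4.3.3) on all 12 libraries: filterByExpr with a minimum count of 10, TMM scaling, a robust quasi-likelihood fit of group means (9 residual degrees of freedom), and Benjamini-Hochberg adjustment over 16981 genes in each of 3 comparisons, with calls under 0.05. Each SE is the size of the log2 fold change over the root of F. CPM are TMM-scaled, and the heatmap adds a prior count of 2. Ratios were compared by exact permutation (scipy 1.17.1). Alternatives were other scalings and filters, DESeq2 1.42.0, limma-voom (limma 3.58.1), only the compared groups, a replicate block and leaving out libraries. The script was checked on simulated counts.

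The members and lists were chosen with earlier results of these data known. Levels, per library or as mean and SD, are given for members that were called and for up to 8 with the smallest p per comparison. They are also given for a fixed set (Bcat1, Bcat2, Bckdha, Bckdk, Ppm1k, Oxct1, Bdh1, Slc7a5). Of each other list, called genes, up to 3 with the smallest p, and Klf15 could be named; 1 further gene of this rule is not reported here. Dbp, Asns and Ppard are examples from these lists, and Dbp was chosen after its values were seen. The labels do not say whether replicate numbers pair animals. Deviations of same-numbered libraries of different groups correlated at -0.187 to 0.246 over 12 pairs, and differently numbered libraries were not compared. Library totals were 23.4 to 34.9 M counts. The chi-square per degree of freedom between replicates' counts was 10.9 to 57.3. Its highest values, 52.7 and 57.3, were those of UNX/DOCA vehicle replicate 3 with replicates 1 and 2.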

Additional observations from a re-analysis of the deposited data

Results flagged for a closer look

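In groups of 4, a library was singled out where its gap to the nearest other library was too large a part of the group's range by the 95% limit of Dixon's test. Of 93 groups looked at, 7 did so, and chance gives about 1 in 20. Each is given as a value without an explanation.

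Slc3a2, the amino acid exchanger heavy chain, stood at 66.6 CPM in UNX/DOCA ITF2357 replicate 4, against 42.4 to 46.1 CPM in the other 3 libraries of the group. The ratio of Bckdk to Ppm1k was 0.590 in UNX/DOCA ITF2357 replicate 1, against 0.873 to 0.930 in the others, in the library with the highest Ppm1k. Bdh1 was low in UNX/DOCA vehicle replicate 2, at 182.6 CPM against 216 to 222 CPM. In Sham vehicle, replicate 1 stood apart for 3 genes: Hibch at 96.7 CPM against 113 to 115 CPM, Slc16a1 at 352 CPM against 288 to 292 CPM, and Slc25a44 at 22.9 CPM against 20.3 to 20.6 CPM. Aldh6a1 was high in Sham vehicle replicate 3, at 219.3 CPM against 195 to 198 CPM.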

How the results depend on the processing

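Values are given in the order UNX/DOCA ITF2357 against UNX/DOCA vehicle, UNX/DOCA vehicle against Sham vehicle, and UNX/DOCA ITF2357 against Sham vehicle, and the causes of the changes were not tested. Of all genes, edgeR called 153, 0 and 298, with 2699 at an unadjusted p under 0.05 in the second. DESeq2 called 928, 593 and 1180, limma-voom 251, 521 and 1506, and the replicate block 68, 31 and 192. Without a filter on low counts 352 and 210 were called in the first 2, upper-quartile scaling gave 7 in the second, and fits of only the compared groups gave 5 in the first and 475 in the third. Leaving out 1 library gave 14 to 243, 0 to 380 and 17 to 616. Without UNX/DOCA vehicle replicates 3 and 4 together, chosen after seeing the data, there were 12, 1 and 481.

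Of the 29 genes, 0, 0 and 2 were called. In the first comparison, library totals alone called 1 (Bcat2), no filter 1 (Acadsb), limma-voom 1 (Bcat2) and DESeq2 6 (Ivd, Dbt, Ppm1k, Acadsb, Bcat2 and Bckdhb). In the second, DESeq2 and limma-voom each called 2 (Ppm1k lower, Slc3a2 higher), and leaving out 1 library gave 0 to 1. In the third, no filter left 1 (Abat), the replicate block 0, and leaving out 1 library gave 0 to 2. The labels do not say whether replicate numbers pair the animals, and why the calls were lost with the block was not tested.

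Over the 3 comparisons, 22 of the 87 log2 values of the 29 genes changed sign in at least 1 of 23 settings (68 of 2001 values), none of them larger than 0.299. The following are those of genes named by rule. Oxct1 in the first comparison was -0.036 without UNX/DOCA vehicle replicates 3 and 4, and Bdh1 was -0.023 in limma-voom. Asns, outside the 29, was 0.0067 there without those 2 libraries. Bcat2 in the second was -0.0048 without a filter. In the third, upper-quartile scaling gave Bckdha 0.0115 and Ppm1k 0.012, and limma-voom gave Bckdha 0.036 and Slc7a5 -0.0039. With 1 library left out, ranges crossed 0 for Bckdk (-0.0036 to 0.067), Oxct1 (-0.014 to 0.0997) and Bdh1 (-0.114 to 0.105) in the first, Bcat2 (-0.030 to 0.042) in the second, and Bckdha (-0.100 to 0.057), Ppm1k (-0.181 to 0.061), Bcat1 (-0.546 to 0.001) and Slc7a5 (-0.112 to 0.190) in the third.

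With 1 library left out, the log2 ratio of Bckdk to Ppm1k differed by -0.59 to -0.34, 0.35 to 0.57 and -0.085 to 0.134, and that of Bcat1 to Bcat2 by -1.21 to -0.89 in the first comparison. The smallest exact permutation p is then 0.0571, so no call was possible. Without UNX/DOCA vehicle replicates 3 and 4 the ratio of Bckdk to Ppm1k differed by -0.30 and 0.28 in the first 2 comparisons, and that of Bcat1 to Bcat2 by -0.81 in the first. Depth limits Bcat1, with 20 to 95 counts per library.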

Other observations

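Among the cell type markers, edgeR called Cd79b and Ms4a1, both of B cells, and no other. Cd79b, part of the B cell receptor, averaged 0.233 ± 0.0676 CPM in UNX/DOCA ITF2357, 0.799 ± 0.303 CPM in UNX/DOCA vehicle and 0.983 ± 0.318 CPM in Sham vehicle (SD, n = 4 each), and was lower in UNX/DOCA ITF2357 than in either other group (edgeR adjusted p = 0.0432 and 0.0215). Ms4a1, which encodes the B cell antigen CD20, was lower than in Sham vehicle (edgeR adjusted p = 0.0343), and both rest on at most 36 counts per library. UNX/DOCA ITF2357 libraries had at most 0.331 CPM of Cd79b and 0.152 CPM of Ms4a1. Both genes passed the filter on low counts only through UNX/DOCA vehicle and Sham vehicle libraries, where they were higher. The calls therefore do not stand as support for a difference. The Cd79b call against UNX/DOCA vehicle was lost without any library but UNX/DOCA vehicle replicate 2 (adjusted p of 0.0339 to 0.112 over 12 omissions). The Cd79b call against Sham vehicle was lost without UNX/DOCA ITF2357 replicate 3 or Sham vehicle replicates 1, 2 or 4 (0.0179 to 0.0688). The Ms4a1 call was lost without UNX/DOCA ITF2357 replicates 3 or 4, UNX/DOCA vehicle replicate 4 or Sham vehicle replicates 1, 2 or 4 (0.0287 to 0.0994). Trac, a T cell receptor gene, averaged 0.385, 0.413 and 0.350 CPM in UNX/DOCA ITF2357, UNX/DOCA vehicle and Sham vehicle without a call. Only 3 of the 6 T and B cell markers were tested, since Cd79a, Cd3d and Cd3e had too few counts.

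Of 8 fibroblast markers, 7 had log2 differences above 0 between UNX/DOCA vehicle and Sham vehicle, where 51.1% of all genes did. The summed level of the 8 was 728 to 954 CPM in UNX/DOCA ITF2357, 899 to 1480.1 CPM in UNX/DOCA vehicle and 795 to 987 CPM in Sham vehicle. The highest sum was that of UNX/DOCA vehicle replicate 3, and the rest of that group had 899 to 1120 CPM. All 5 erythroid markers were lower in every UNX/DOCA vehicle library than in any Sham vehicle library, where 4.36% of all genes were. Hba-a2 was so by a narrow margin, at 56.92 against 57.06 CPM. The erythroid sums were 237 to 579 CPM in UNX/DOCA ITF2357, 161 to 363 CPM in UNX/DOCA vehicle and 426 to 535 CPM in Sham vehicle. None of these 13 genes was called by edgeR in any comparison. Endothelial markers (7 genes) and smooth muscle and pericyte markers (6 of 7 tested) gave no call either, and the 5 adipocyte markers had too few counts to be tested.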
